A study of Mus musculus with 24 samples.

Results

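The neurogenic bHLH factors are 9 transcription factor genes, Neurog1, Neurog2, Neurog3, Neurod1, Neurod2, Neurod4, Neurod6, Nhlh1 and Nhlh2. Every probe set that the platform annotation assigns to one of these symbols alone was taken, whatever its signal, which gave 16 probe sets of the 45037 tested and 9 of the 18193 genes with a symbol of their own. Neurod2 and Neurod4 have 3 probe sets each, Neurod1, Neurog1 and Neurog3 have 2, and Neurod6, Neurog2, Nhlh1 and Nhlh2 have 1. No filter on signal was applied, so all members were tested.

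RNA was measured on Affymetrix mouse arrays, with 24 samples in 8 groups of 3. P19 cells, a mouse embryonal carcinoma line that can be turned into neurons, and mouse embryonic fibroblasts (MEFs) from Myod-/-/Myf5-/- mice received a lentivirus carrying either NeuroD2, itself a neurogenic bHLH factor, or MyoD, the bHLH factor of skeletal muscle. Controls were untransduced, so the factor and the infection that delivered it cannot be told apart. Batch 1 held P19 and MEF controls and both cell types with MyoD, batch 2 held MEF controls and MEFs with NeuroD2, and batch 3 held P19 controls and P19 cells with NeuroD2. Virus was added with polybrene at 8 µg/ml and the medium was renewed after 24 hours. Transduced P19 cells were collected at 72 hours. For MEFs given MyoD, a differentiation medium with horse serum replaced growth medium at 48 hours, and harvest came 36 to 40 hours after that. The sources used here do not give the medium of the MEF controls at harvest or the harvest time of MEFs with NeuroD2, so medium and MyoD cannot be told apart in MEFs. The MEFs lack both Myod and Myf5 in control and transduced groups alike. All MEF groups therefore come from 1 mutant genotype, and no wild-type fibroblasts were among the samples. Nothing in the labels tells if the 3 replicates of a group came from separate dishes. A p-value here measures only the spread between these samples, which may be technical.

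The genes of this family act in sequence in the developing nervous system. Neurogenins commit progenitors to the neuronal fate, NeuroD factors act in the cells that follow, and Nhlh1 and Nhlh2 (also called NSCL1 and NSCL2) appear in newly born neurons. They bind E-boxes, the sequence CANNTG, as dimers with ubiquitous E proteins. Id proteins capture those partners, and Hes and Hey repressors of the Notch pathway silence neurogenic genes. Neurog3 and Neurod1 also work in the endocrine pancreas.

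Marker genes were set against the labels. All 6 pluripotency markers, such as Pou5f1 and Nanog, were lower in untransduced MEFs than in untransduced P19 cells, and all 6 fibroblast markers were higher. With MyoD, 6 of 6 skeletal muscle markers rose in MEFs and 5 of 6 in P19 cells, although the labels call those samples neuronally differentiated. The sum of the 6 neuron markers on the linear scale lay between 8244 and 12180 in P19 cells with NeuroD2 and between 1830 and 3221 in their controls. In MEFs with NeuroD2 it lay between 435.2 and 454.8, against 189.4 to 277.4 in the controls, but Tubb3 alone of the 6 was called there and the median difference was 0.15. The sum was also higher in MEFs with MyoD (262.7 to 303.2) than in their controls (206.8 to 217.5), so it does not check the NeuroD2 label of the MEFs. One array stood apart before any comparison was made. P19 control replicate 2 of batch 1 had quartiles of 4.79 and 7.63, against 4.47 to 4.58 and 8.23 to 8.39 in the other 23 arrays, and it enters the comparisons of batch 1 directly and the others through the shared estimate of the spread.

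In P19 cells, NeuroD2 raised 6 of the 9 genes, Neurod1, Neurod2, Neurod4, Neurog1, Nhlh1 and Nhlh2, through 8 of the 16 probe sets. None was lower. Of all probe sets tested, 6.12% passed in either direction and 4.07% were higher. The difference among the 8 ran from 1.70 to 6.29 on the log2 scale (limma, adjusted p under 0.05 over all probe sets, all 24 arrays in one fit). Leaving out the array that stood apart also gave 8 higher and 0 lower, with 16.1% of all probe sets then called.

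**Figure D1:**
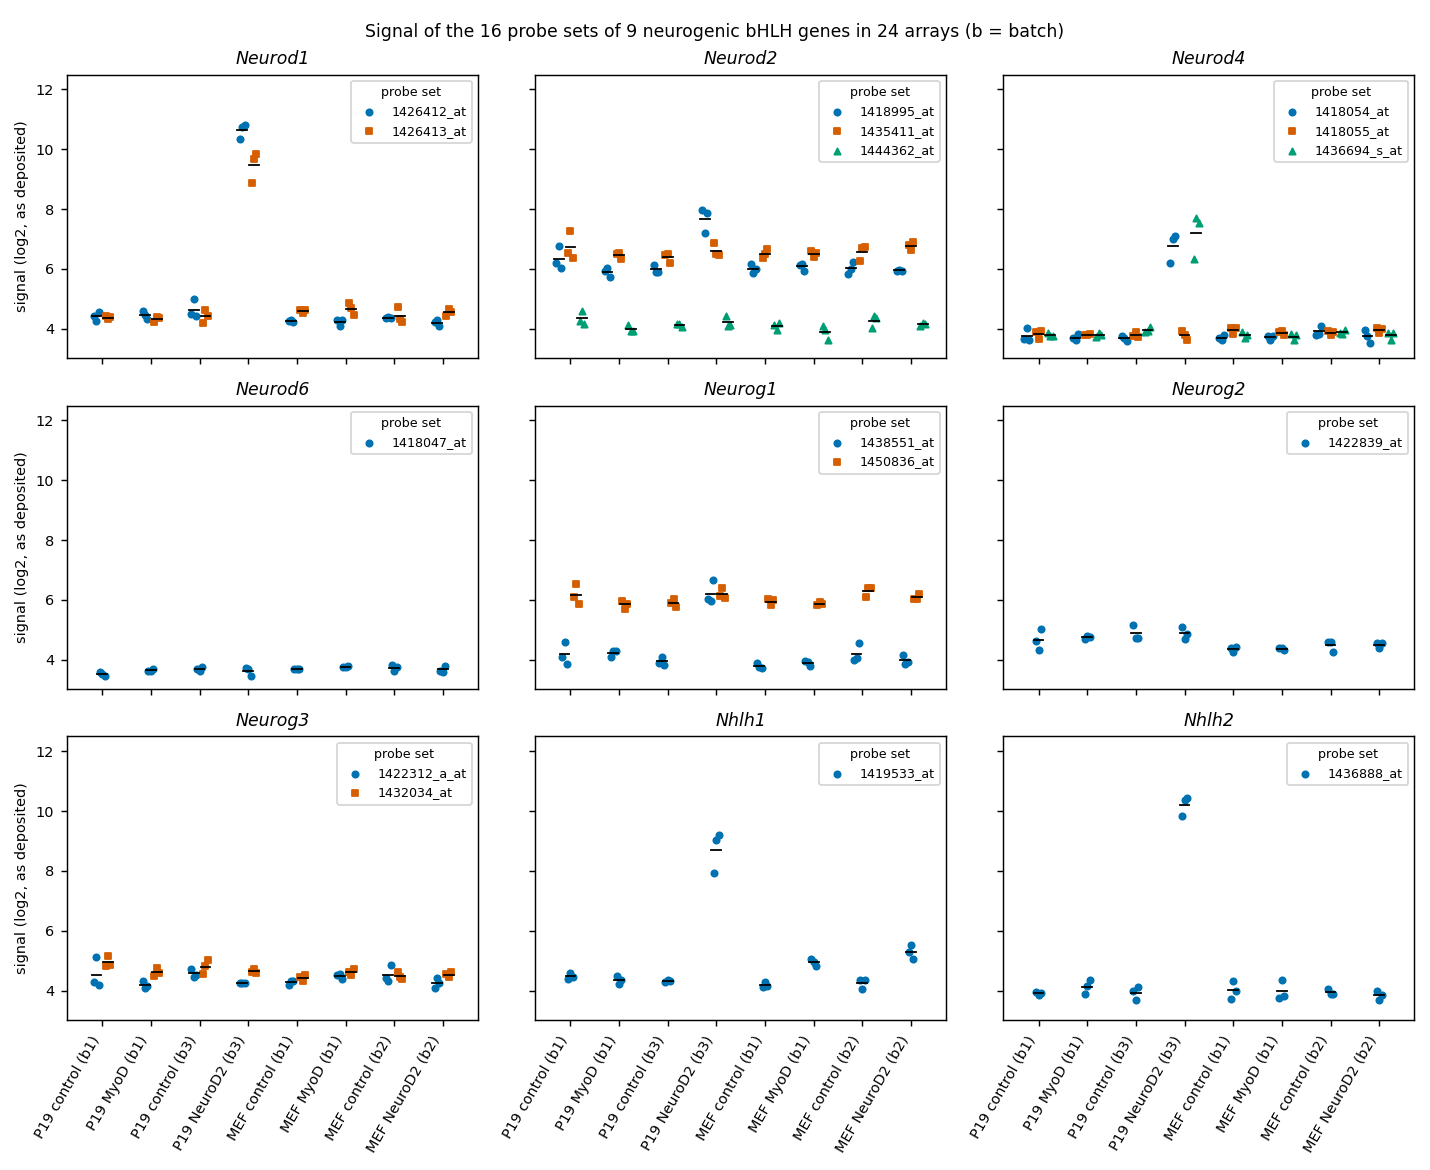
Deposited log2 signal (vertical axis, the same in all panels) of each member in each of the 24 arrays, by cell type, factor and batch (b1 to b3). Each point is 1 array, shapes and colours separate the probe sets of a gene, and short black lines are means of 3 arrays. Neurod1, Nhlh1, Nhlh2, Neurod4 (1418054_at and 1436694_s_at), Neurod2 (1418995_at) and Neurog1 (1438551_at) stand high in P19 cells with NeuroD2. The other probe sets of Neurod2, Neurod4 and Neurog1 do not, nor do Neurod6, Neurog2 and Neurog3.

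NeuroD2, the introduced factor, is read by 3 probe sets of Neurod2. On probe set 1418995_at the P19 arrays with NeuroD2 read 7.98, 7.20 and 7.87, and their controls 6.13, 5.90 and 5.91. The difference was 1.70 ± 0.185 (SE, n = 3 per group, limma adjusted p = 2.17e-06). The other probe sets of the gene differed by 0.21 (1435411_at, limma adjusted p = 0.753) and 0.08 (1444362_at, limma adjusted p = 0.922). In MEFs given NeuroD2, 1418995_at read 5.94, 5.97 and 5.94, within the range of the controls at 5.82, 6.00 and 6.21. Their differences in MEFs were -0.06, 0.21 and -0.12 over the 3 probe sets, none of them called. Whether any of the 3 reads the RNA of the virus as well as that of the cell's own gene was not tested, so the gene does not check the label in either cell type.

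The neurogenins differed among themselves. Neurog1, a determination factor of sensory and cranial neurons, read 6.02, 5.94 and 6.66 on 1438551_at with NeuroD2 and 3.88, 4.10 and 3.83 in the controls. The difference was 2.27 ± 0.189 (SE, n = 3 per group, limma adjusted p = 4.88e-08). Its other probe set, 1450836_at, stood at 5.90 ± 0.13 (SD, n = 3) in the controls and at 6.19 ± 0.17 with NeuroD2, a difference of 0.29 that did not pass (limma adjusted p = 0.328). Neurog2, which acts in dorsal forebrain and spinal cord progenitors, had a difference of 0.01, with a 95% interval from -0.31 to 0.33. Neurog3, the endocrine determination factor of the pancreas, had differences of -0.31 (1422312_a_at) and -0.15 (1432034_at), neither called.

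Of the NeuroD genes, Neurod1, a differentiation factor of neurons and islet cells, rose on both probe sets. On 1426412_at it read 10.33, 10.76 and 10.81 with NeuroD2 against 4.49, 4.97 and 4.43 without, and on 1426413_at 8.88, 9.67 and 9.83 against 4.20, 4.63 and 4.41. Both groups were far apart on both probe sets, with differences of 6.00 ± 0.138 (SE, limma adjusted p = 9.8e-17) and 5.05 ± 0.186 (SE, limma adjusted p = 1e-13). The control signals lie about the lower quartile of the arrays, 4.47 to 4.58 in 23 of them, and the floor of the arrays was not measured. These differences may therefore be understated, and those of different probe sets have no measured order.

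Neurod4, also known as Math3 and active in retina, hindbrain and sensory ganglia, rose on 1418054_at from 3.76, 3.70 and 3.58 to 6.19, 7.01 and 7.10. On 1436694_s_at it rose from 3.87, 3.91 and 4.04 to 6.34, 7.68 and 7.54. The differences were 3.09 ± 0.177 (SE, limma adjusted p = 1.54e-10) and 3.24 ± 0.212 (SE, limma adjusted p = 1.23e-09). Its 1418055_at stayed between 3.61 and 4.02 in all 24 arrays, with a difference of -0.01 and a 95% interval from -0.22 to 0.19, so the probe sets of this gene disagree. Neurod6, a factor of postmitotic cortical neurons, lay between 3.46 and 3.81 in all arrays and differed by -0.05 (95% interval from -0.24 to 0.13).

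Both Nhlh genes rose. Nhlh2 read 9.84, 10.37 and 10.43 with NeuroD2 and 3.97, 3.67 and 4.12 in the controls, a difference of 6.29 ± 0.185 (SE, n = 3 per group, limma adjusted p = 2.85e-15). Nhlh1 read 7.92, 9.03 and 9.19 against 4.28, 4.34 and 4.31, a difference of 4.41 ± 0.214 (SE, n = 3 per group, limma adjusted p = 1.25e-11). The 3 arrays with NeuroD2 were not alike. Replicate 1 was the lowest on 6 of the 8 called probe sets and replicate 2 on the other 2, and the gap between lowest and highest array reached 1.27 for Nhlh1 and 1.35 for Neurod4 (1436694_s_at). All 8 called probe sets stayed called when any 1 array of the comparison was left out.

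The RNA of these dishes is a bulk sample, so more cells with a transcript and more of it per cell cannot be told apart. Markers of other cell types moved with the factor. All 6 neuron markers rose, by a median of 2.99, with Dcx at 4.25 and Map2 at 4.18. Of the 5 glia markers measured 2 rose, Olig2 by 3.47 and Mbp by 1.17, and their sum lay between 674.6 and 1187 against 309.6 to 535.9 in the controls. Thy1 of the fibroblast list, Krt19 and Epcam of the epithelial list fell, by 1.16, 1.24 and 1.04, and Myh3 of the muscle list rose by 0.96. None of the 6 pluripotency markers was called (median -0.23), but their sum, 25770 to 25850 with NeuroD2, lay below that of every control, 28810 to 31210. The part of these cell types in the members' levels was not tested.

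**Figure D2:**
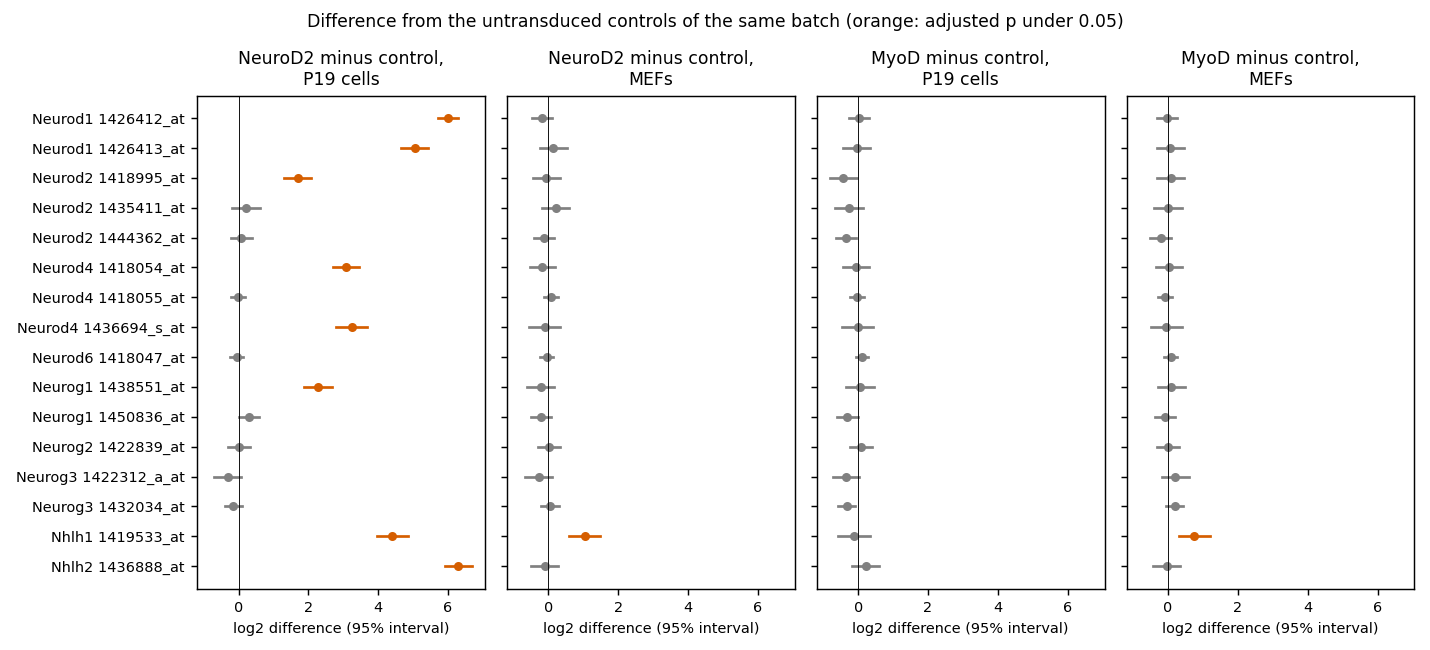
Difference in log2 signal between transduced cells and the untransduced controls of the same cell type and batch (horizontal axis), with 95% intervals, for the 16 probe sets in each of the 4 comparisons. Orange marks an adjusted p under 0.05 over all probe sets. There are 8 orange points for NeuroD2 in P19 cells, with Nhlh2 at 6.29, 1 for NeuroD2 in MEFs and 1 for MyoD in MEFs, both Nhlh1, and none for MyoD in P19 cells.

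Since the genes rose together, the DNA just before their transcription start is shown for Neurod1, Nhlh1 and Nhlh2, each with a fitted difference above 4. The sequences are RefSeq's, build GRCm38.p6, written 5′ to 3′ on the gene's strand, with each E-box (CANNTG) in capitals. Those of Neurod1 and Nhlh1 are the 250 bases before the start, and for Nhlh2 the last bases are left out because a longer transcript model covers them.
Neurod1, chr2:79456637-79456886, minus strand: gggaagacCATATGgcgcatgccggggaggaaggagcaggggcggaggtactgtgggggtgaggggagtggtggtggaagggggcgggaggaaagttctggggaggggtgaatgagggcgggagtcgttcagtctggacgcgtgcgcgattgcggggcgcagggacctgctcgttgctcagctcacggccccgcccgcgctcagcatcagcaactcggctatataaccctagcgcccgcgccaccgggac
Nhlh1, chr1:172057597-172057846, minus strand: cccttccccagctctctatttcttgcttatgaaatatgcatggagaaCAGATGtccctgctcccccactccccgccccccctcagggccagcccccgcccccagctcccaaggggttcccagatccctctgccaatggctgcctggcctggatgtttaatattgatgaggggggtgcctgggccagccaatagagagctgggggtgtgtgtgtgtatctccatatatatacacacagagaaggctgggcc
Nhlh2, chr3:102009895-102010110, plus strand: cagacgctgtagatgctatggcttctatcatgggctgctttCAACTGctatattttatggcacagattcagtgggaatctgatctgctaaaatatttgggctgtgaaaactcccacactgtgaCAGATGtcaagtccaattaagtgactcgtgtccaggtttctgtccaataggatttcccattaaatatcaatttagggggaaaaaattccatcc
CAGATG, an E-box form that NeuroD and neurogenin factors are known to bind, lies 203 bases before the start of Nhlh1 and 127 bases before that of Nhlh2. Neurod2 holds one as well, 118 bases before its start. The E-box of Neurod1 at 242 bases is of another form, CATATG. Over the 250 bases, no CANNTG lay before either start of Neurod4 or before the starts of Neurog1 and Neurog2. Neurod6 holds 2 E-boxes of other forms and Neurog3 a CAGCTG at 165 bases. Both strands were searched, and the forms named are counted within CANNTG too. Of 32851 such windows of mouse genes, at least one CANNTG was found in 66.2%. The form CAGATG was found in 14.4% and the form CAGCTG in 13% of them. These matches describe letters in a window, and sites farther away were not searched.

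In MEFs, NeuroD2 raised only Nhlh1 of the 9 genes and lowered none, with 9.65% of all probe sets called and 5.22% called higher. Its signal was 5.29, 5.52 and 5.04 with NeuroD2 and 4.34, 4.04 and 4.34 in the controls of batch 2. The difference was 1.04 ± 0.214 (SE, n = 3 per group, limma adjusted p = 0.00196). The remaining 15 probe sets differed by -0.28 to 0.21, with the lowest adjusted p at 0.537 (limma). For Neurod1, whose P19 response was 6.00 on 1426412_at, the MEF difference was -0.17 with a 95% interval from -0.46 to 0.12. For Nhlh2 it was -0.10, with an interval from -0.49 to 0.29.

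The effect of NeuroD2 differed between the cell types for the same 6 genes on the same 8 probe sets, by a test of the difference itself in which 8% of all probe sets were called. The P19 effect minus the MEF effect was 6.39 for Nhlh2 and 6.18 for Neurod1 (1426412_at). It was 3.36 for Nhlh1, 3.35 for Neurod4 (1436694_s_at), 2.49 for Neurog1 and 1.76 for Neurod2, all with a limma adjusted p of 8.68e-05 or less. Cell type and batch cannot be told apart here, because each cell type with NeuroD2 was run in a batch of its own. The controls of the same cell type from another batch gave no called member, neither in P19 cells (11.9% of all probe sets called, batch 3 against batch 1) nor in MEFs (3.4%, batch 2 against batch 1). Counts at an unadjusted p under 0.05 were 0 and 2 probe sets of the 16. The share of all probe sets under that level was not counted, so these counts have no background. Without the array that stood apart, 1 member probe set was called between the MEF batches, with 15.2% of all probe sets called. Neuron markers other than Tubb3, which rose by 1.83, did not pass in MEFs with NeuroD2. The glia sum there was 210.3 to 231.1 against 467 to 493.4 in the controls, with Mbp the 1 of 5 called, at -1.75, and its part in the members' levels was not tested.

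With MyoD, 1 member was called, and only in MEFs. In P19 cells no member was called, with 2.08% of all probe sets called. At an unadjusted p under 0.05 there were 4, each lower with MyoD, and the 16 differences ran from -0.42 to 0.21 (lowest limma adjusted p = 0.133). Those 4 were chosen after their values were seen, and the share of all probe sets under that level was not counted. They are Neurod2 (1418995_at, -0.42, and 1444362_at, -0.34), Neurog1 (1450836_at, -0.31) and Neurog3 (1432034_at, -0.33). The controls of this comparison include the array that stood apart, and it was the highest control on each of them, reading 6.77 on 1418995_at against 6.20 and 6.01 in the other controls. Without P19 control replicate 3 of batch 1, 3 genes were called lower. That fit called 9648 of all probe sets higher and 6627 lower, against 765 and 173 with all arrays. Without replicate 1, 1 gene was called lower, and the share of all probe sets called in that fit is not given here. Without the array that stood apart no member was called, with 2.51% of all probe sets called.

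In MEFs, MyoD raised Nhlh1 alone among the 9 genes, in a comparison that called 19.7% of all probe sets and 8.68% as higher. Nhlh1 read 5.06, 4.96 and 4.83 with MyoD and 4.13, 4.30 and 4.16 in the controls of batch 1. The difference was 0.75 ± 0.214 (SE, n = 3 per group, limma adjusted p = 0.0144). This call ended without MEF control replicate 1 (limma adjusted p = 0.0541) and without MyoD replicate 1 (limma adjusted p = 0.0597). The other 15 probe sets differed by -0.21 to 0.21. All 6 muscle markers rose in the same arrays, their sum lying between 76640 and 82490 against 219.5 to 241.8, and 4 of 6 fibroblast markers fell. Of the neuron markers Map2 rose by 1.03, and the sum of the 5 glia markers lay between 190.9 and 219.8 against 461.6 to 510.8, with Mbp the 1 called, lower by a difference of -2.11. The part of these changes in the Nhlh1 signal was not tested.

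Nhlh1 was thus the member called in 3 of the 4 factor comparisons. In MEFs 1 call among 16 probe sets is near the share of all probe sets called higher, 5.22% with NeuroD2 and 8.68% with MyoD. The group means of Nhlh1 were 8.72 ± 0.69 (SD, n = 3) in P19 cells with NeuroD2, 5.28 ± 0.24 in MEFs with NeuroD2 and 4.95 ± 0.11 in MEFs with MyoD. The other 5 groups had means between 4.20 and 4.48 and did not differ from their neighbours in this order beyond the SD of each. The MEF groups with NeuroD2 and with MyoD overlap by single arrays (5.04 against 5.06). The NeuroD2 effect minus the MyoD effect in MEFs was 0.29 ± 0.303 (SE, limma adjusted p = 0.712), a difference that was not detectable with these arrays. In P19 cells MyoD gave 4.49, 4.22 and 4.37 against 4.39, 4.60 and 4.46, a difference of -0.12 that was not called. The MyoD effect in P19 cells minus that in MEFs was -0.87 for Nhlh1 and missed the threshold (limma adjusted p = 0.0549).

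**Figure D3:**
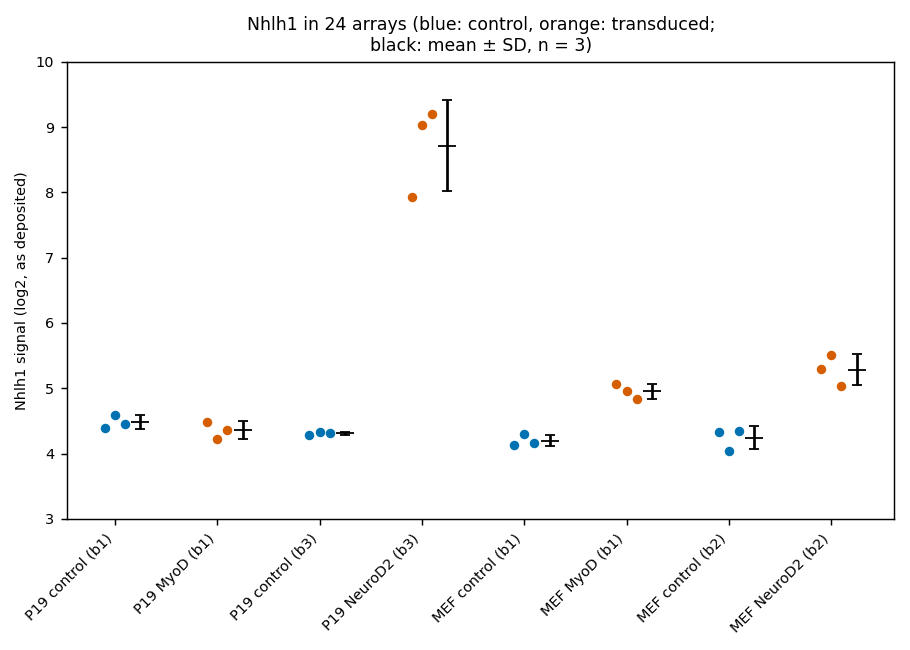
Deposited log2 signal of Nhlh1 (vertical axis) in the 24 arrays, grouped by cell type, factor and batch. Blue points are untransduced controls, orange points transduced cells, and black bars the mean ± SD of 3 arrays. The arrays of both MEF groups with a factor, from 4.83 to 5.52, lie above all MEF controls, and P19 cells with NeuroD2 lie highest.

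In P19 cells the effects of the factors differed for the same 6 genes on 8 probe sets, higher for NeuroD2 in each, where 3.78% of all probe sets were called. The NeuroD2 effect minus the MyoD effect was 6.08 for Nhlh2, 5.97 for Neurod1 (1426412_at) and 4.53 for Nhlh1. In MEFs this difference was called for none of the members, with 14.6% of all probe sets called. At an unadjusted p under 0.05 there were 0 members, and the share of all probe sets under that level was not counted. Without the array that stood apart, 1 member was called lower for NeuroD2 in MEFs, with 27.7% of all probe sets called.

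Untransduced MEFs and P19 cells, which differed on 42.8% of all probe sets, differed on 1 of the 16. Neurog3 (1432034_at) read 4.45, 4.32 and 4.53 in MEFs and 4.82, 5.14 and 4.85 in P19 cells, a difference of -0.50 ± 0.121 (SE, n = 3 per group, limma adjusted p = 0.00193). The highest P19 value is from the array that stood apart, without which the difference was -0.40 and still called, as 1 of 2 member probe sets, among 45.6% of all. In a fit of only the arrays compared it was not called (limma adjusted p = 0.0589). The second probe set of the gene differed by -0.27 and was not called. For MyoD, the effect on 1432034_at was -0.33 in P19 cells and 0.19 in MEFs, neither called. The difference of these effects was -0.52 ± 0.171 (SE, limma adjusted p = 0.0431), the single member called among 16.4% of all probe sets, and it missed the threshold without the array that stood apart.

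Away from P19 cells with NeuroD2, the level of most members hardly varied. Over the other 21 arrays, Neurod1 lay between 4.07 and 4.97 on 1426412_at, Neurod4 between 3.53 and 4.09 on 1418054_at, and Nhlh2 between 3.67 and 4.35. The means of those 7 groups spanned 0.44, 0.22 and 0.29 in turn. On these 3 probe sets the order below the first group has no step that exceeds the SD of both neighbours, apart from 1 in Neurod1 between MEF controls of batch 2 and batch 1. The other probe sets of Neurod4 have 1 such step each, of 0.08 on 1436694_s_at and 0.09 on 1418055_at. Neurog2 was highest in the 4 P19 groups, with means of 4.66 to 4.88 against 4.35 to 4.50 in MEFs, but no step in its order exceeded the SD of its neighbours.

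The genes whose group means followed each called member most closely were found by Pearson correlation over the 8 group means, among genes whose means spanned at least 1. These values are a description, and since the points share the 3 arrays of P19 cells with NeuroD2 as their high end, they rest mostly on that group. Neurod1 went with Ebf2 (r = 0.9993), a transcription factor of young neurons, Neurod4 (0.9992), Nhlh2 (0.9977), Ppp1r17 (0.9964) and Uncx (0.9963). Neurod4 and Nhlh2 shared Ebf2, Ppp1r17, Neurod1 and Olig2 among their 5 closest, and Nhlh2 also had Chgb (0.9985), a granule protein of neurosecretory cells. Nhlh1, which alone also moved in MEFs, had other neighbours, Rgs13 (0.9959), Sgpp2 (0.9907), Fstl5 (0.9833), Synpr (0.9825) and Mybl1 (0.98). Neurog1 and Neurod2 shared Sct, the gene of secretin, at 0.9894 and 0.99. Neurog1 further had Celf6, Gm11346, Scg3 and Chrnb4, and Neurod2 had Srrm4os, Stmn4, Slc17a6 (a vesicular glutamate transporter) and D930028M14Rik.

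Genes known as targets of neurogenins and NeuroD factors were measured for all 36 on the list, each by its probe set with the highest mean. With NeuroD2 in P19 cells 27 rose and none fell, with a median of 1.64, while 4.92% of all genes were higher, 2.89% were lower and the median of all genes was -0.05. The largest rises were those of Chgb (6.81 ± 0.209 SE, limma adjusted p = 5.01e-15), of Ebf2 (5.31) and Ebf3 (4.91), and of Dll3 (4.64), a Notch ligand of newborn neurons. The same list in MEFs with NeuroD2 had 5 higher and 0 lower, with a median of 0.05, where 6.15% of all genes were higher and 5.74% lower. The 4 largest there were Rcor2 (2.43), a partner of the REST corepressor complex, Dll1 (2.25), Tubb3 (1.83) and Hes6 (1.05). Tubb3, Stmn2, Elavl4, Dcx and Snap25 of this list are also among the 6 neuron markers.

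The same targets were read with MyoD. In P19 cells 6 rose and 1 fell, against 1.88% of all genes higher and 0.627% lower. Dll1, a Notch ligand, rose by 1.84, the chemokine receptor Cxcr4 by 1.74, Hes6 by 1.47 and Gadd45g by 1.37. The one that did not rise, Eomes, fell by 1.23. In MEFs with MyoD 5 rose and 4 fell, against 10.4% higher and 14% lower of all genes, with Dll1 at 4.27 and Hes6 at 3.20 above the controls and Ebf1 at -2.91 and Gap43 at -1.61. For MyoD in MEFs both counts are near the share of all genes called. Without the array that stood apart, 31 targets were higher and 0 lower for NeuroD2 in P19 cells, 8 and 1 in MEFs, and for MyoD 7 and 2 in P19 cells and 10 and 5 in MEFs. The share of all probe sets called was then 16.1% and 20.7% for NeuroD2 in P19 cells and MEFs. For MyoD it was 2.51% and 32.1%.

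**Figure D4:**
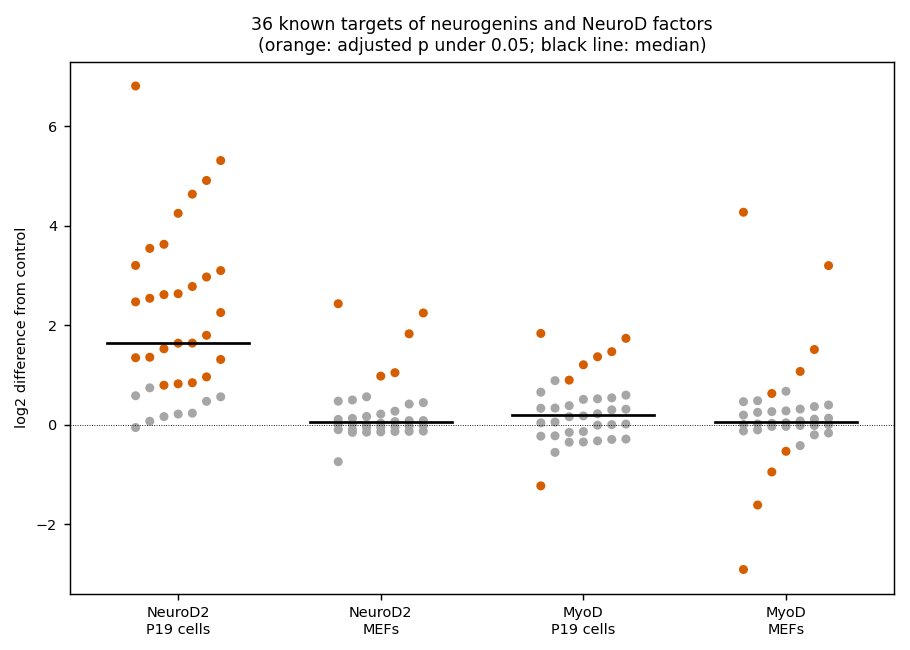
Difference in log2 signal from the controls (vertical axis) for the 36 known targets of neurogenins and NeuroD factors in the 4 factor comparisons. Each point is 1 gene, orange where the adjusted p is under 0.05, and black lines are medians. In P19 cells with NeuroD2 27 points are orange and the median is 1.64, and in the other 3 comparisons the medians lie between 0.05 and 0.20.

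Id, Hes and Hey genes, most of them inhibitors of the family, were measured together with Rest and with Hes6, which counteracts Hes1. Of these 12, with NeuroD2 in P19 cells, 6 rose, 1 fell and 5 were not called (median 0.88, against -0.05 for all genes, of which 4.92% were higher and 2.89% lower). Id2 rose by 2.10, Id4 by 2.06, Id1 by 1.94, and the Notch target Hes5 by 1.47. Rest, the repressor of neuronal genes in other cells, fell by 0.82. NeuroD2 in MEFs raised 4 and lowered 0, where 6.15% of all genes were higher and 5.74% lower, Id4 by 2.43, Id2 by 2.29, Id1 by 2.02 and Hes6 by 1.05. MyoD raised 6 and lowered 0 in P19 cells, against 1.88% and 0.627% of all genes, with Hes6 (1.47), Id4 (1.24), Id2 (1.19) and Hey1 (1.11) first. In MEFs MyoD raised 5 and lowered 1, against 10.4% and 14% of all genes, with Hes6 at 3.20, Id2 at 2.66, Id1 at 1.88 and Id4 at -1.42. Hes6 stands on both this list and that of the targets.

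The E proteins Tcf3, Tcf4 and Tcf12, the dimer partners, did not pass for NeuroD2 in P19 cells. Tcf12 fell by 0.71 with NeuroD2 in MEFs. With MyoD, Tcf4 rose by 1.15 in P19 cells and Tcf3 fell by 0.53 in MEFs. These counts of 0 or 1 grew without the array that stood apart to 2 higher for NeuroD2 in P19 cells, 2 lower for NeuroD2 in MEFs, and 1 higher and 1 lower for MyoD in MEFs. Calls over all probe sets grew as well, from 6.12% to 16.1%, from 9.65% to 20.7% and from 19.7% to 32.1% in turn.

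Other bHLH factors of neural tissue were measured for 10 of 12 genes. Olig2 (3.47) and Olig1 (1.34), factors of motor neuron and oligodendrocyte progenitors, rose with NeuroD2 in P19 cells and none fell. Atoh8 rose in MEFs with both factors, by 3.20 with NeuroD2 and 1.61 with MyoD, and no other gene of the list was called there. No gene of the list was called for MyoD in P19 cells. Of regulators that act upstream in neural progenitors, 4 of 12 rose with NeuroD2 in P19 cells, Pax6 by 3.25, Notch1 by 2.19, Emx2 by 1.69 and Dbx1 by 1.41, and none fell, where 4.92% of all genes were higher and 2.89% lower. In MEFs 1 rose and 1 fell with NeuroD2, against 6.15% and 5.74% of all genes, and 2 rose and 1 fell with MyoD, against 10.4% and 14%, which is near the background. There, Notch1 rose with NeuroD2 (1.58) and with MyoD (3.02), Emx2 fell with both (by 1.01 and by 0.59), and Nes, an intermediate filament of progenitors and young muscle, rose by 3.72 with MyoD. MyoD in P19 cells called none of the 12. Without the array that stood apart, 5 of these regulators were higher and 1 lower for NeuroD2 in P19 cells, 1 and 2 in MEFs, and 2 and 2 for MyoD in MEFs. The share of all probe sets called was then 16.1%, 20.7% and 32.1% in turn.

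Endocrine islet genes downstream of Neurog3 were measured for 12 of 18. With NeuroD2 in P19 cells 6 rose and none fell (median 0.78, against -0.05 for all genes, of which 4.92% were higher and 2.89% lower). Neurog3 itself was not called. Insm1, a zinc finger factor of neuroendocrine cells, rose by 3.63, Pax6 by 3.25, Isl1 by 2.47 and Nkx6-1 by 1.96. All 4 also act in neural tissue, and Insm1, Isl1 and Chga stand on the list of NeuroD targets too. Neither factor moved a gene of this list in MEFs, and MyoD in P19 cells raised 1, Insm1 by 1.21.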

How the data were processed

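Groups, batches and replicates were read from the sample titles. The values are log2 signals as deposited by the authors. How background was corrected and arrays were normalized is stated nowhere in these sources. The submitters' processing notes list limma, with no version. Medians and quartiles of 23 arrays nearly coincide, those of P19 control replicate 2 of batch 1 do not. No detection calls came with the table, and the floor of the arrays was not measured. Low signals may lie near it, where differences would be understated. All columns were used.

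Of 45101 probe sets, 64 controls were left out, and 45037 were tested without scaling or filtering. The annotation gave 34945 of them 1 symbol, 932 several and 9160 none. One mean per group was fitted over 24 arrays in limma 3.58.1 (R 4.3.3), with 16 residual degrees of freedom, in 11 comparisons. Tests were two-sided, with Benjamini-Hochberg adjustment over all probe sets. "Called", "rose" and "fell" mean an adjusted p under 0.05. An exact permutation test of 3 against 3 cannot go below p = 0.1 and was not used.

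The members, the gene lists and the tests were chosen with earlier results of these data known. Every probe set of a member is reported. From each list up to 4 called genes of largest difference are named, by the probe set with the highest mean, and from the likeness search the 5 genes of highest r. Between same-numbered replicates of a batch, the correlation of deviations from group means ran from -0.20 to 0.31 over 24 pairs of arrays, and 7 exceeded 0.1. Differently numbered replicates were not compared, so whether the numbers pair the samples cannot be told. The main fit used no pairing. No arrays were duplicates. The fit was tested on simulated data, where it recovered 68 of 100 changes of 1 and 99 of 100 changes of 2 on the log2 scale. It made 10 false calls. The changed probe sets had a higher mean signal than most member probe sets, so recovery at the level of most members was not tested. Alternatives covered scaling, filters, probe set choice, variance model, arrays and controls used, the replicate block and leaving out each array. Promoter windows are RefSeq's.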

Additional observations from a re-analysis of the deposited data

Results flagged for a closer look

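The response to NeuroD2 differed between cell types on 8 probe sets, each by a test of the difference in one limma fit with adjustment over all probe sets. The P19 effect minus the MEF effect was 6.18 (adjusted p = 1.33e-14) and 4.91 (adjusted p = 4.9e-11) on the log2 scale for the probe sets of Neurod1, and 1.76 (adjusted p = 8.68e-05) for Neurod2. For Neurod4 it was 3.25 (adjusted p = 1.32e-08) and 3.35 (adjusted p = 1.17e-07), and for Neurog1 it was 2.49 (adjusted p = 1.27e-06). Nhlh1 differed by 3.36 (adjusted p = 1.24e-07) while it rose in both cell types, and Nhlh2 by 6.39 (adjusted p = 8.66e-13). These 8 kept their call under all alternatives run for them. Testing 1 probe set per gene, or the mean of its probe sets, was not run for 1418995_at (Neurod2) and 1438551_at (Neurog1). For Neurod2 those fits counted under 1435411_at, which was called in none of its 23 alternatives (lowest limma adjusted p = 0.0545). For Neurog1 they counted under 1450836_at, which was called in 3 of 23.

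The response of Neurog3 (1432034_at) to MyoD also differed between P19 cells and MEFs, by -0.52 (limma adjusted p = 0.0431), with neither effect called on its own. It missed the threshold in 11 of 21 alternatives, with adjusted p from 0.00962 to 0.116 and differences from -0.60 to -0.40.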

How the results depend on the processing

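The 6 member genes higher for NeuroD2 in P19 cells, in its difference between cell types and in its difference from MyoD in P19 cells stayed within 1.5 times that count under every alternative. So did Nhlh1 for NeuroD2 in MEFs. A count within that bound can still have lost genes. In the main fit Neurod2 and Neurog1 were called only on 1418995_at and 1438551_at. Testing 1 probe set per gene keeps those of highest mean, 1435411_at and 1450836_at, which were not called in the main fit. Of the values of single member probe sets in all comparisons, 535 of called ones kept and 14 lost the call, 47 of uncalled ones gained it, and 0 reversed. The cause of the changes below was not tested. The count of genes lower for the MyoD effect between cell types, 1, became 0 with quantile normalization, with arrays shifted to the same median and with the replicate block, and 2 with 1 probe set per gene, with their mean and with array weights. That of MEF against P19 controls, 1 lower, became 0 without dim probe sets, which removed Neurog3, and with only the arrays compared, and 2 with array weights, and arrays shifted to the same median called 1 higher. For MyoD in MEFs, 2 were higher with only the arrays compared and with array weights, 1 was lower with array weights, and 2 were lower with controls of the other batch. Array weights, whose fit stopped before its tolerance, also called 1 lower for NeuroD2 in MEFs, 3 higher for MEF controls between batches, and 1 higher and 1 lower for NeuroD2 against MyoD in MEFs. Leaving out single arrays gave 0 to 3 lower for MyoD in P19 cells, 0 to 1 higher for MyoD in MEFs, and 0 to 2 lower for the MyoD effect between cell types. It gave 1 to 3 lower for MEF against P19 controls, 0 to 1 higher and 0 to 2 lower for P19 controls between batches, 0 to 1 higher for MEF controls between batches, and 0 to 1 lower for the factors in MEFs. The highest of these came without P19 control replicate 3 of batch 1 for MyoD in P19 cells, MEF against P19 controls and P19 controls between batches, without its replicate 2 for the last pair, and without its replicate 1 for the MyoD effect between cell types. Whether the replicate numbers pair the samples cannot be told. With the replicate block Nhlh1 kept 4.41, 1.04 and 0.75 with its calls (limma adjusted p = 6.74e-09, 0.00328 and 0.0156). No call of a member changed there but that of Neurog3 (limma adjusted p = 0.0756).

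Counts over all probe sets moved widely, and are given with their range over alternatives in brackets. They were 1833 higher and 923 lower (928 to 6914 and 510 to 5321) for NeuroD2 in P19 cells, 2349 higher and 1997 lower (1166 to 7510 and 1080 to 7738) for NeuroD2 in MEFs, 765 higher and 173 lower (47 to 9648 and 5 to 6627) for MyoD in P19 cells, 3907 higher and 4982 lower (1963 to 9451 and 2638 to 10477) for MyoD in MEFs. For controls they were 10014 higher and 9246 lower (4511 to 11567 and 4061 to 13172) for MEF against P19 controls, 4100 higher and 1270 lower (0 to 9595 and 0 to 6896) for P19 controls between batches, 855 higher and 677 lower (209 to 6579 and 99 to 7260) for MEF controls between batches. For differences of effects they were 1979 higher and 1624 lower (1024 to 6326 and 825 to 6489) for the NeuroD2 effect between cell types, 5129 higher and 2240 lower (2665 to 8814 and 1163 to 7592) for the MyoD effect between cell types, 928 higher and 774 lower (385 to 3362 and 124 to 3412) for the factors in P19 cells, 3731 higher and 2853 lower (1911 to 9529 and 1516 to 8871) for the factors in MEFs. The lowest values come mostly from testing 1 probe set per gene or only the arrays compared, and the highest from array weights or from leaving out P19 control replicate 3 of batch 1. With 3 arrays per group and no detection calls, small differences at low signal cannot be shown.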
